A study of Mus musculus with 20 samples.

Results

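Chemokines and their receptors were followed across 20 RNA-seq libraries of mouse fetal liver progenitors that were wild type, lacked a distal enhancer of the gene for the transcription factor GATA2, or lacked it and had GATA2 or a variant put back. Members were all protein-coding genes whose symbol begins with Ccl, Cxcl, Xcl, Ccr, Cxcr, Xcr or Ackr and a number. Of 53379 gene identifiers 58 fitted, 36 ligands and 22 receptors, and 25 of them, 17 ligands and 8 receptors, reached a mean of 1 TPM in at least 1 group. TPM is a gene's share of a library's transcripts, corrected for gene length, so that genes can be compared within a library. The cells were E14.5 C57BL/6J fetal liver cells depleted of lineage-positive cells (Lin-), infected with a pMSCV retroviral vector and kept for 3 days in IMDM with 20% FBS and conditioned media for IL3 and SCF. The 5 groups of 4 libraries were wild-type cells with a control vector, -77 enhancer knockout cells with a control vector (called enhancer-null below), and -77 knockout cells with a vector for Gata2, for GATA2 R307W or for GATA2 T354M. The control vector is called empty here. The R307W and T354M records give the cell type, the MSCV vector and the days of culture but no age, strain or medium, so a difference in handling from the other 3 groups cannot be told apart from the effect of a variant. A retroviral vector drives Gata2 away from its own promoter and enhancers, and the labels do not say whether the 4 libraries of a group came from separate embryos or cultures, so p-values measure the spread between these libraries.

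Chemokines are small secreted proteins that guide cells along concentration gradients through receptors coupled to G proteins, and atypical receptors bind chemokines without that signal. In fetal liver and marrow the Cxcl12 receptor Cxcr4 helps to hold stem and progenitor cells in place, and each maturing myeloid lineage carries receptors of its own: Ccr2 and Ccr1 on monocytes, Cxcr2 on neutrophils, Ccr3 on eosinophils, basophils and mast cells, and Ccr7 on dendritic cells that move to lymph nodes. GATA2 is a zinc finger factor needed for stem cells, mast cells and basophils. R307W lies in its N-terminal finger and T354M in its C-terminal finger.

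The promoters below belong to 5 genes described below beside a neighbouring member: Ccl17 and Ccl22 on chromosome 8, Ccr3 and Ccr2 on chromosome 9, and Ccl3 on chromosome 11. Each is 300 bases of RefSeq GRCm38.p6 on the gene's own strand, from 250 bases before to 50 bases after a RefSeq transcript start. Capitals mark the GATA motif AGATAA or TGATAA, or an interferon response element core GAAANNGAA, on either strand (where the motif lies on the opposite strand its complement is in capitals).
Ccl17 promoter, chr8:94810203-94810502, plus strand: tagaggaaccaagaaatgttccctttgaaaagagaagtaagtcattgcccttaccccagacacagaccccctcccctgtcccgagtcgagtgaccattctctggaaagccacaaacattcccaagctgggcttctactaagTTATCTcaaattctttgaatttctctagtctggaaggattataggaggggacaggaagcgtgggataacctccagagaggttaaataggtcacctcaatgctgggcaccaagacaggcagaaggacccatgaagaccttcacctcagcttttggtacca
Ccl22 promoter, chr8:94745434-94745733, plus strand: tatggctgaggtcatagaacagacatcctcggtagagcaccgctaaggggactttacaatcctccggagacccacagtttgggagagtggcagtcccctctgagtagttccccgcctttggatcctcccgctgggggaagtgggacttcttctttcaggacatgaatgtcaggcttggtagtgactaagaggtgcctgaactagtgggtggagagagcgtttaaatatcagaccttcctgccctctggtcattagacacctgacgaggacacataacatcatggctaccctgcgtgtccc
Ccr3 promoter, chr9:124021721-124022020, plus strand: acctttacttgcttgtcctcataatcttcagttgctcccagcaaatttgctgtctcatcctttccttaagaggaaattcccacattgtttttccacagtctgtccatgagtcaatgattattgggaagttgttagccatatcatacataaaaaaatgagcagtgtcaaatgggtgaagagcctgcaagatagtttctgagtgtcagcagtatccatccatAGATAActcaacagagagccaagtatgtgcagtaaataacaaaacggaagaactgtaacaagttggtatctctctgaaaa
Ccr2 promoter, chr9:124101933-124102232, plus strand: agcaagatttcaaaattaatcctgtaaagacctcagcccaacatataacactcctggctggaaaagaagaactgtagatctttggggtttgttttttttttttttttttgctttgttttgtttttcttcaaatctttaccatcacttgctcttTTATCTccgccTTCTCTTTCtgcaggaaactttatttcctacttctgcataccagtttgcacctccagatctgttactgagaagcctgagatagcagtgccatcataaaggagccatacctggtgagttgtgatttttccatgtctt
Ccl3 promoter, chr11:83649329-83649628, minus strand: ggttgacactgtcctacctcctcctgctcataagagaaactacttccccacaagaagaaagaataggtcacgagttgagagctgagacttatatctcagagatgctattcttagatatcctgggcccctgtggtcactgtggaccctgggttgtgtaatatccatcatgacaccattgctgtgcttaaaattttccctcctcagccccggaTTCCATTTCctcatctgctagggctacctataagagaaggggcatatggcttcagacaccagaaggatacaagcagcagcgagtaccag
The Ccl17 and Ccr3 windows each hold 1 GATA motif, the Ccr2 window holds 1 GATA motif and 1 interferon core, the Ccl3 window holds 1 interferon core, and the Ccl22 window holds neither. A window was given for 18 of the 25 members. A GATA motif was found in 6 of those 18 (Ackr1, Ccl17, Ccl27a, Ccr2, Ccr3 and Cxcl10), against 21% of the 27025 genes with windows, or 18.6% of all 32851 windows. The interferon core was found in 3 (Ccl3, Ccr2 and Cxcl10), against 9.76% of genes, and the NF-kappaB motifs GGGACTTTC and GGGAATTCC in none of the 18, against 0.403% and 0.252% of genes. These matches describe letters only, and whether any factor binds there was not measured.

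Library totals ran from 22330475 to 33245876 expected counts. Gata2, the targeted gene, was at 14.2 ± 3.12 TPM (SD, n = 4) in wild-type cells, 2.03 ± 0.35 in enhancer-null cells, 33.4 ± 11.1 with the GATA2 vector, 26.2 ± 9.46 with R307W and 31.1 ± 11.1 with T354M, and reads of the vector and of the gene cannot be separated. All 7 progenitor markers were expressed in every group, summing to between 233 and 559 TPM. Marker genes of mature cells were also present after culture. The 10 mast cell and basophil markers, a list that includes Gata2, summed to 450 to 650 TPM in wild-type libraries, 30.8 to 39.3 in enhancer-null, 1065 to 3169 with GATA2, 314 to 682 with R307W and 316 to 971 with T354M, with Tpsb2 at 0 in all enhancer-null and Mcpt4 at 0 in all R307W libraries. The 8 eosinophil markers summed to 726 to 1220, 14.7 to 24.7, 2178 to 3880, 1738 to 4178 and 1097 to 5850 in the same order, and the 10 monocyte and macrophage markers to 209 to 352, 627 to 754, 142 to 427, 189 to 476 and 233 to 592. The 10 dendritic cell markers summed to 35.9 to 44.8, 209 to 318, 61.8 to 163, 59.6 to 148 and 63 to 152, the 10 neutrophil markers to 12551 to 32448, 5420 to 7927, 2496 to 4522, 3477 to 6055 and 6245 to 9126, and the 8 erythroid markers to 1763 to 3165, 188 to 477, 211 to 327, 251 to 535 and 167 to 191. The T and NK cell list summed to under 1.5 TPM in every library. In bulk samples, fewer cells of a type and less RNA per cell cannot be told apart, and the part of these lineages in the chemokine results was not tested.

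The family was dominated by a few genes, and the leading gene changed with the group. Summed over all 58 family genes, the mean level was 410 TPM in wild-type cells, 659 in enhancer-null cells, 748 with GATA2, 578 with R307W and 430 with T354M. The 36 ligands contributed 280, 282, 437, 240 and 180 TPM, and the 22 receptors 130, 377, 311, 338 and 251 TPM. Ccl6 stood first in wild-type cells (111 TPM), Ccr2 in enhancer-null cells (227 TPM), Ccl9 with GATA2 (205 TPM), and Cxcr4 with R307W (137 TPM) and with T354M (105 TPM). The same 6 genes, Ccl6, Ccl9, Ccl3, Ccr2, Ccr1 and Cxcr4, filled the first 6 places in every group.

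The members just inside the limit were Ccl27a (1.31 TPM in its highest group) and Ccl5 (1.23), and those just outside were Ccr8 (0.868) and Ccr9 (0.835). All 25 members at or above it passed the filter on low counts. Of the 33 below it, 19 ligands and 14 receptors, 11 passed and 22 did not. No read was counted in any library for Ccl21a, Ccl26 and Ccl27b, and 17 of the 33, these included, stayed under 0.1 TPM in every group. Several receptors of expressed ligands were among the low genes: Ccr4, which binds Ccl17 and Ccl22, Ccr10, which binds Ccl27a, and Xcr1, which binds Xcl1, each had a mean under 0.1 TPM in all 5 groups. The ligand of Cxcr4, Cxcl12, reached a mean of 0.608 TPM at most.

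**Figure D1:**
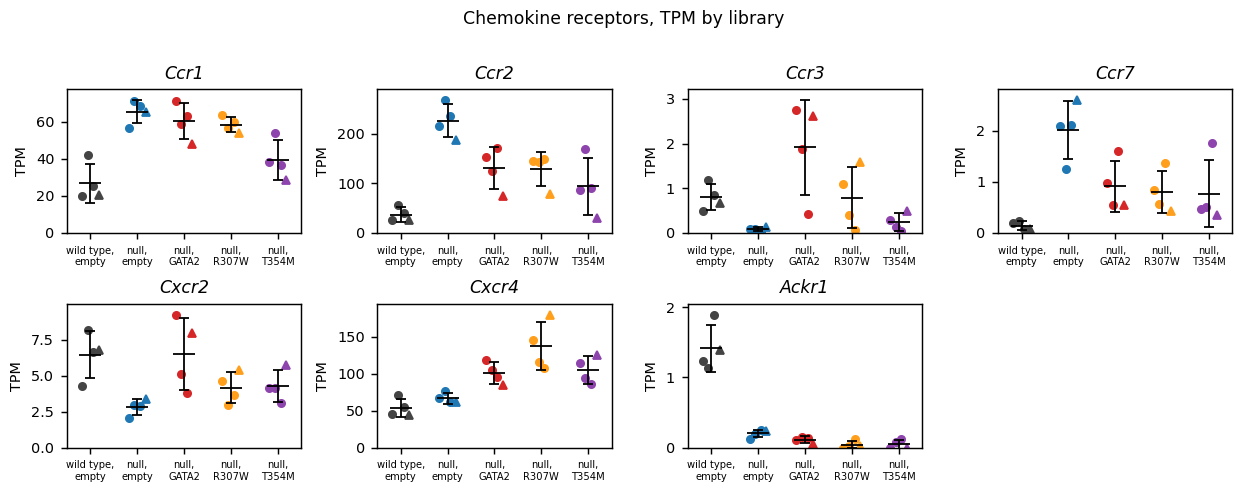
TPM of 7 receptors in each library (y axes, linear and starting at 0) for the 5 groups (x axis, null = enhancer-null); points are libraries, triangles replicate 4, and bars the mean ± SD. Ccr2, Ccr1 and Ccr7 are higher in every enhancer-null than in every wild-type library, while Ccr3, Cxcr2 and Ackr1 are lower.

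Loss of the -77 enhancer changed 17 of the 25 members (edgeR quasi-likelihood test over 15835 genes, Benjamini-Hochberg adjusted p under 0.05), 9 upward and 8 downward. The background was high: 43.3% of all tested genes were called, 20.1% as higher and 23.2% as lower in enhancer-null cells. Over the 36 family genes tested at any level, 14 were higher and 10 lower. Among the receptors at 1 TPM or more, Ccr1, Ccr2 and Ccr7 rose, and Ccr3, Cxcr2 and Ackr1 fell. The median log2 difference of the members was 0.27, against -0.05 over all tested genes. Over all genes 3181 were called as higher and 3678 as lower, and with limma on log2(TPM + 1) 3494 and 2472.

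Among the receptors, Ccr2, the receptor for Ccl2, Ccl7 and Ccl12 with which monocytes leave the marrow, was at 25.31, 56.96, 39.32 and 26.74 TPM in wild-type replicates 1 to 4 and at 215.43, 268.17, 235.43 and 187.76 in the enhancer-null ones. The lowest enhancer-null library lay more than 3-fold above the highest wild-type library. The log2 difference in counts was 2.51 ± 0.36 (SE, n = 4, edgeR adjusted p = 1.66e-05). Ccr1, a receptor for Ccl3, Ccl5, Ccl6, Ccl7 and Ccl9, rose from 26.9 ± 10.5 to 65.6 ± 6.3 TPM (log2 difference 1.20 ± 0.18, edgeR adjusted p = 2.65e-05). Ccr2 had fractional expected counts in 20 of 20 libraries, which arise where reads are shared with another gene, so its level carries the uncertainty of that split.

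Ccr7, the dendritic cell receptor for Ccl19 and Ccl21, was at 0.20, 0.24, 0.07 and 0.07 TPM in wild-type libraries and at 2.09, 1.25, 2.11 and 2.60 in enhancer-null libraries. It was close to absent in the first group and present in every library of the second, a log2 difference of 3.74 ± 0.60 (edgeR adjusted p = 4.93e-05). All 10 monocyte and macrophage markers rose as well, and of the 10 dendritic cell markers 8 rose and 2 fell.

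In the opposite direction, Ccr3, the eotaxin receptor, was at 0.50, 1.19, 0.85 and 0.66 TPM in wild-type and at 0.09, 0.08, 0.03 and 0.14 TPM in enhancer-null libraries (log2 difference -3.26 ± 0.84, edgeR adjusted p = 0.00372). Cxcr2, the neutrophil receptor for Cxcl1, Cxcl2 and Cxcl5, fell from 6.47 ± 1.62 to 2.85 ± 0.56 TPM (-1.29 ± 0.28, edgeR adjusted p = 0.000845). Ackr1, the atypical Duffy receptor of red cells and endothelium, fell from 1.41 to 0.205 TPM (-2.86 ± 0.49, edgeR adjusted p = 9.82e-05). In each of these the groups did not overlap. All 8 eosinophil, all 10 mast cell and basophil and all 8 erythroid markers fell in this comparison, and 6 of 10 neutrophil markers fell with 1 higher. The mast cell and basophil list includes Gata2, the gene whose enhancer was removed. Of 10 endothelial and stromal markers 4 rose and 0 fell. Cxcr4 did not pass the test, at 53.6 ± 12.4 TPM in wild-type and 66.9 ± 7.1 TPM in enhancer-null cells (0.18 ± 0.16, edgeR adjusted p = 0.383).

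The ligands split as well. Ccl22, made by dendritic cells and macrophages, was at 0.14, 0.17, 0.14 and 0.15 TPM in wild-type and at 0.95, 1.03, 1.49 and 2.04 TPM in enhancer-null libraries (log2 difference 3.02 ± 0.69, edgeR adjusted p = 0.00145). Ccl17, the other ligand of Ccr4, went the other way, from 0.45, 1.07, 0.71 and 0.31 TPM to 0.09, 0.00, 0.00 and 0.08 TPM (edgeR adjusted p = 0.00295). Its enhancer-null total was 2 counts, so the fold is best given as a ratio of counts scaled to the library totals, 13.6-fold higher in wild-type cells with an exact 95% counting interval of 3.39 to 118. Such intervals cover counting error only. The start sites of Ccl22 and Ccl17 are 64.9 kb apart.

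Of the inflammatory CC ligands, Ccl6 fell from 97.50, 148.32, 119.58 and 79.36 TPM in wild-type to 51.00, 51.36, 54.65 and 46.39 TPM in enhancer-null libraries (-1.18 ± 0.21, edgeR adjusted p = 0.000134). Ccl5 rose from 0.1 to 1.23 TPM (3.36 ± 0.94, edgeR adjusted p = 0.00699). Ccl9 (99.4 and 143 TPM), Ccl3 (21.2 and 27.4) and Ccl4 (6.11 and 11.1) did not pass the test, although every enhancer-null library exceeded every wild-type library for Ccl4. The other ligands called as higher were Cxcl16, a membrane-bound ligand of Cxcr6, with 2.06 and 5.39 TPM, Xcl1 with 0.333 and 1.7 TPM, and Cxcl2, a Cxcr2 ligand, with 0.658 and 1.55 TPM. Xcl1 came to 14 counts over the 4 wild-type libraries.

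Among the monocyte-attracting ligands of Ccr2, Ccl7 fell from 3.97 to 1.64 TPM (-1.39 ± 0.46, edgeR adjusted p = 0.02), while Ccl2 (17 and 15.6 TPM) and Ccl12 (1.05 and 1.33 TPM) were not called. Ccl25 (4.68 and 3.67 TPM) and Ccl27a (1.16 and 0.48 TPM), which attract thymocytes and skin-homing T cells, were called as lower although their libraries overlapped. Both overlap a gene on the other strand, Elavl1 (25.3 to 29.1 TPM in the group means) and Il11ra1 (4.59 to 8.83 TPM), and the strand setting of the counting is not given in the sources used here. Ccl20 and the interferon-induced Cxcl10 (4.58 and 10.6 TPM) did not pass.

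Of these 17 calls, 4 rested on single libraries. Ccl25 missed the threshold without enhancer-null replicate 1, 3 or 4 or wild-type replicate 4 (adjusted p 0.0541 to 0.297), and Ccl27a without enhancer-null replicate 3 or wild-type replicate 1, 3 or 4 (0.0533 to 0.114). Ccl7 missed it without enhancer-null replicate 4 (0.0544) or wild-type replicate 1 (0.125), and Cxcl2 without enhancer-null replicate 1 (0.0509) or 2 (0.163) or wild-type replicate 1 (0.0877) or 4 (0.117). Ccl25 also missed it with limma on log2(TPM + 1) (0.239) and in a fit of these 8 libraries alone (0.096), Ccl7 with limma on log2(TPM + 0.1) (0.0504), and Cxcl2 in the fit of 8 libraries (0.0509).

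**Figure D2:**
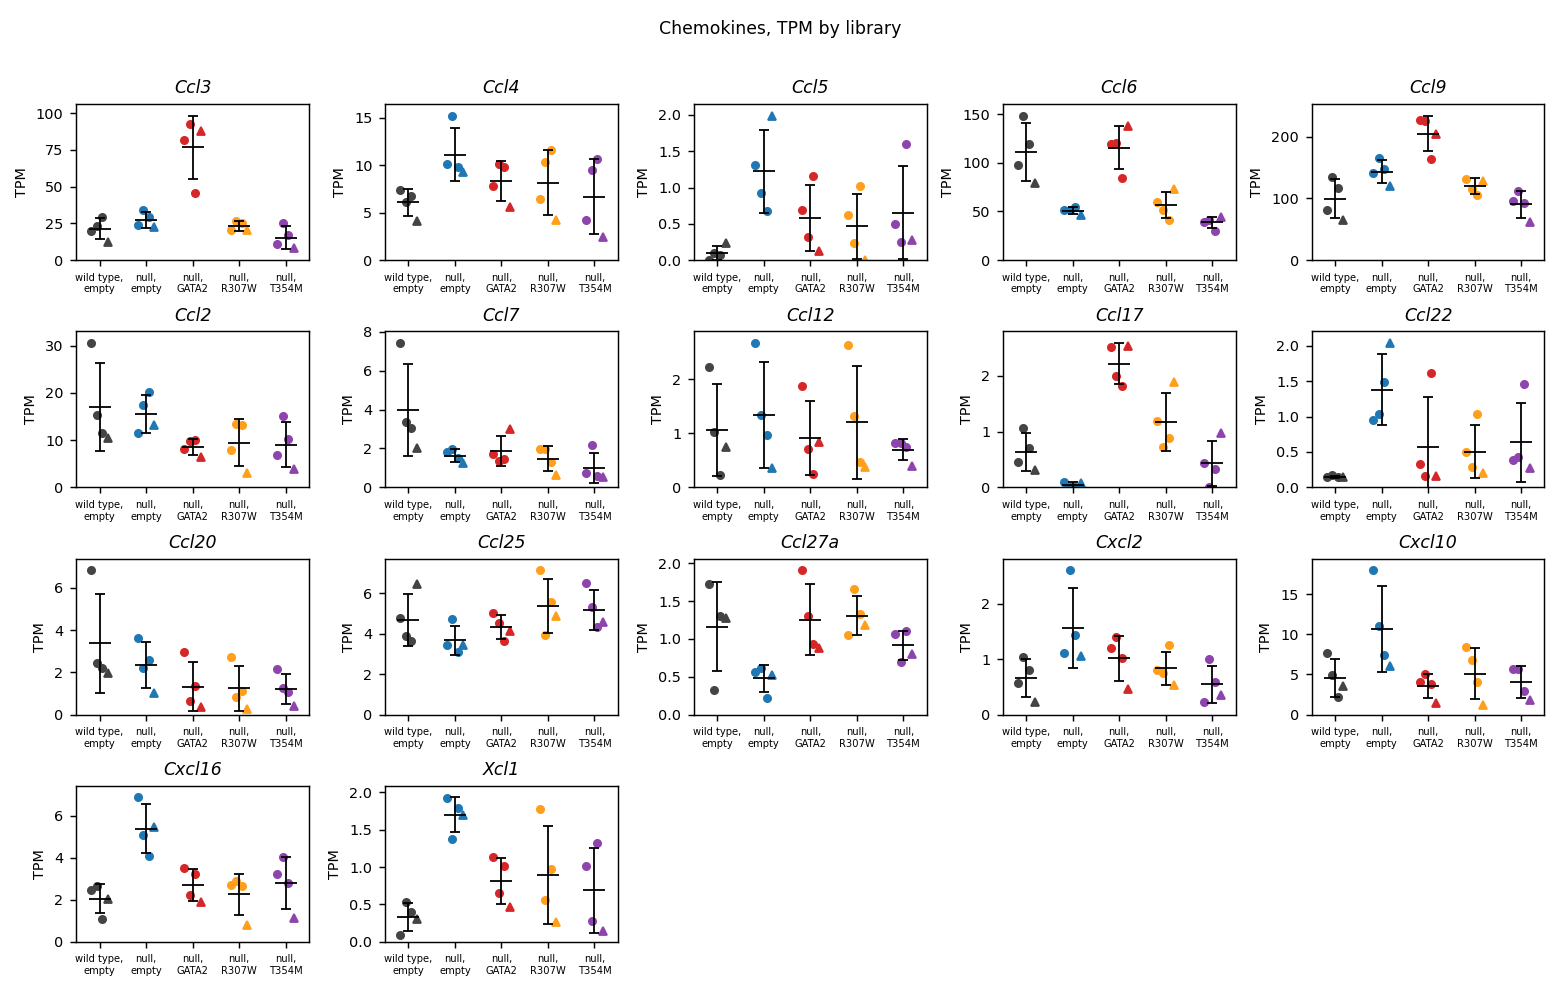
TPM of the 17 ligands in each library (y axes, linear and starting at 0) for the 5 groups (x axis, null = enhancer-null); points are libraries, triangles replicate 4, and bars the mean ± SD. With GATA2, Ccl3 lies between 45.56 and 92.76 TPM and above every library of the other 4 groups, while Ccl4 with GATA2 overlaps the enhancer-null libraries.

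With the GATA2 vector in enhancer-null cells, 9 of the 25 members were called, 8 higher and 1 lower, against 19.2% of all tested genes, 11% higher and 8.23% lower. Over the 36 family genes tested at any level, 10 were higher and 4 lower. The members' median log2 difference was -0.47, against 0.00 over all genes. The upward calls held 3 ligands of Ccr1 (Ccl3, Ccl6 and Ccl9), the receptors Ccr3, Cxcr2 and Cxcr4, and Ccl17 and Ccl27a. All 10 mast cell and basophil markers and all 8 eosinophil markers rose in the same comparison. The mast cell and basophil list includes Gata2, which the vector itself supplies.

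Ccl3, the inflammatory chemokine MIP-1alpha, was at 24.04, 33.97, 29.38 and 22.24 TPM with the empty vector and at 81.52, 92.76, 45.56 and 87.89 TPM with GATA2. All 4 GATA2 libraries were higher, replicate 3 the least, with a log2 difference of 1.54 ± 0.30 (edgeR adjusted p = 0.00152). Its neighbour Ccl4 (MIP-1beta), whose start lies 13.2 kb away, was at 10.18, 15.23, 9.79 and 9.32 TPM and at 7.84, 10.10, 9.82 and 5.57 TPM. The Ccl4 groups overlapped and the difference did not pass the test (-0.39 ± 0.37, edgeR adjusted p = 0.537). Whether the 2 genes differ in their response was not tested.

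Ccl6, a myeloid ligand of Ccr1, was at 119.12, 120.26, 84.68 and 137.38 TPM with GATA2, above all enhancer-null libraries (1.23 ± 0.21, edgeR adjusted p = 0.000429). Ccl9, another Ccr1 ligand and the next member beside Ccl6, was at 140.41, 165.57, 148.17 and 119.67 TPM with the empty vector and at 226.68, 224.74, 164.52 and 203.96 TPM with GATA2. Replicate 3 with GATA2 fell within the enhancer-null range, and the change was small, 0.58 ± 0.17 (edgeR adjusted p = 0.0202). The Ccl9 call was lost without GATA2 replicate 2 (adjusted p = 0.0683) or 4 (0.0735) or enhancer-null replicate 4 (0.0636).

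Ccr3 was at 2.74, 1.88, 0.43 and 2.61 TPM with GATA2, again lowest in replicate 3 and in every library above the enhancer-null maximum of 0.14 TPM (4.48 ± 0.84, edgeR adjusted p = 0.00106). Ccl17 was at 2.52, 2.00, 1.81 and 2.54 TPM (edgeR adjusted p = 0.00011), a ratio of 50.5 to the 2 enhancer-null counts with an exact 95% counting interval of 13.7 to 422. Cxcr2 rose from 2.85 to 6.53 TPM (1.22 ± 0.28, edgeR adjusted p = 0.00464), while of the 10 neutrophil markers 7 fell and none rose. Cxcr4 rose from 66.95, 76.92, 61.79 and 61.93 TPM to 118.91, 104.79, 95.41 and 85.02 TPM (0.64 ± 0.16, edgeR adjusted p = 0.0103), without overlap.

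The single fall was Cxcl10, an interferon-induced ligand of Cxcr3, from 18.00, 11.05, 7.43 and 6.09 TPM to 4.03, 5.04, 3.75 and 1.45 TPM (-1.71 ± 0.55, edgeR adjusted p = 0.035). The call was lost without GATA2 replicate 1 (adjusted p = 0.0677), 3 (0.0544) or 4 (0.12) or enhancer-null replicate 1 (0.126) or 2 (0.0583). Ccl27a (0.48 and 1.26 TPM) was called at an adjusted p of 0.0373 and lost its call without GATA2 replicate 1, 2 or 4 or without any 1 enhancer-null library (0.0568 to 0.133). A fit that pairs same-numbered libraries as replicate blocks called 14 members instead of 9. Over all genes it called 4085 instead of 3042, with 1992 instead of 1304 lower and 2093 instead of 1738 higher. The 5 members added were all lower with GATA2: Ccr2 (-0.82, adjusted p = 0.0133), Cxcl16 (-1.05, 0.0238), Ccl20 (-1.03, 0.0084), Ccl22 (-1.91, 0.00402) and Ccr7 (-1.30, 0.0257).

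With GATA2, the mean levels of Ccr2 and Ccr7 lay between those of wild-type and enhancer-null cells. Ccr2 was at 152.93, 125.28, 171.70 and 75.14 TPM, below every enhancer-null library, with an unblocked log2 difference of -0.78 ± 0.34 (edgeR adjusted p = 0.123). Ccr1 was at 60.4 TPM against 65.6 TPM with the empty vector (-0.10 ± 0.18, edgeR adjusted p = 0.759). Ackr1, at 0.118 ± 0.0435 TPM with GATA2 and 0.205 TPM with the empty vector, did not pass the test (edgeR adjusted p = 0.392). Of the 8 erythroid markers 4 rose and 1 fell with GATA2.

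**Figure D3:**
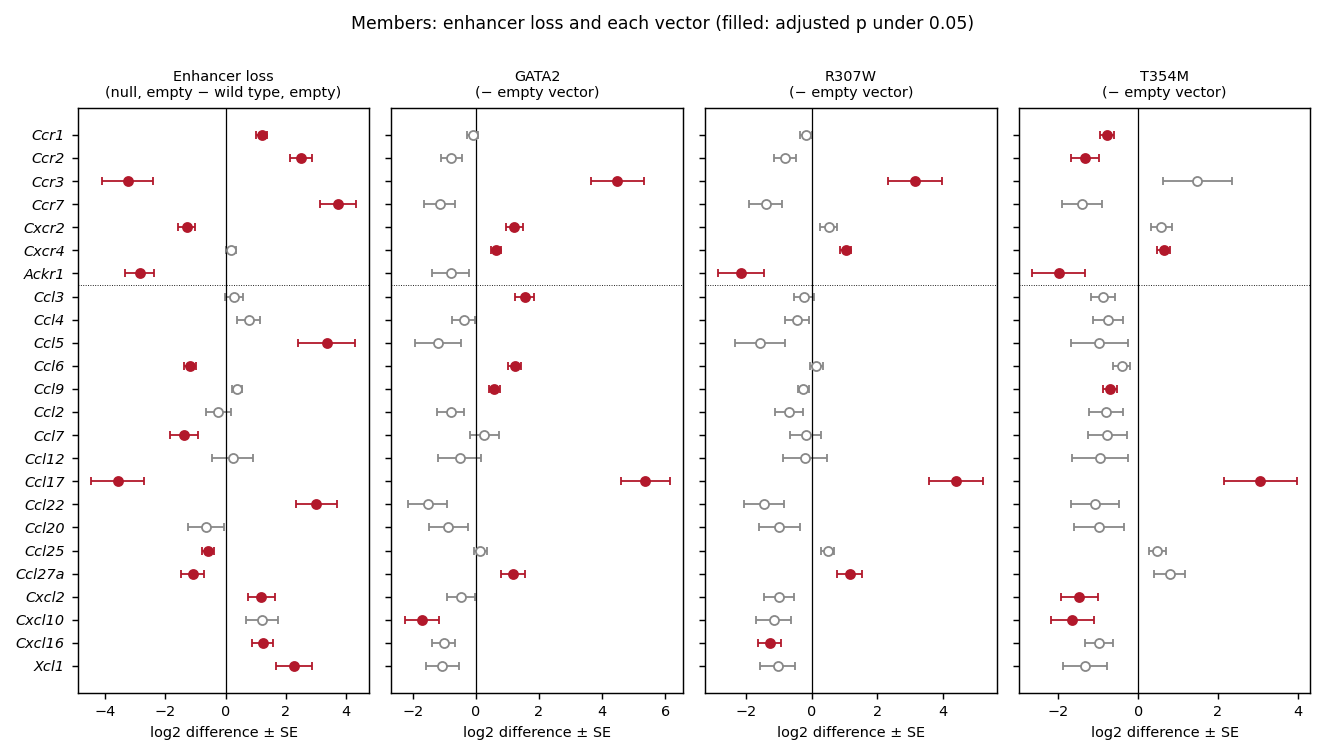
Log2 differences ± SE (x axes, scales differ between panels) of 24 members (y axis, receptors above the dotted line, ligands below) for enhancer loss and for each vector against the empty vector; filled red points were called. With GATA2 the called members are 8 higher and 1 lower, with T354M 2 higher and 6 lower.

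Set directly against wild-type cells, GATA2-rescued cells had 8 members called, 7 higher and 1 lower, against 30.7% of all genes, 14.7% higher and 16% lower. The members' median log2 difference was 0.72, against -0.00. Ccr2 (37.1 TPM in wild-type and 131 in rescued cells, 1.73 ± 0.35, edgeR adjusted p = 0.000879), Ccr1 (26.9 and 60.4 TPM, 1.10 ± 0.18, 0.000119) and Ccr7 (0.145 and 0.915 TPM, 2.59 ± 0.60, 0.00262) were still higher. Ccl3 (21.2 and 76.9 TPM, 1.81 ± 0.30, edgeR adjusted p = 0.000149), Ccl9 (0.95 ± 0.17, 0.000237), Ccl17 (0.635 and 2.22 TPM, 1.76 ± 0.54, 0.0177) and Cxcr4 (53.6 and 101 TPM, 0.82 ± 0.16, 0.000739) exceeded their wild-type level. The Ccl17 call was lost without wild-type replicate 4 (adjusted p = 0.0549). Ackr1 was lower, at 0.118 against 1.41 TPM (-3.66 ± 0.52, edgeR adjusted p = 2.54e-05), and all 8 erythroid markers were lower too. Of the 10 endothelial and stromal markers 3 were higher and 0 lower. Ccl6 (111 and 115 TPM, 0.05 ± 0.20, edgeR adjusted p = 0.88) and Cxcr2 (6.47 and 6.53 TPM, -0.07 ± 0.27, 0.865) did not pass the test.

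**Figure D4:**
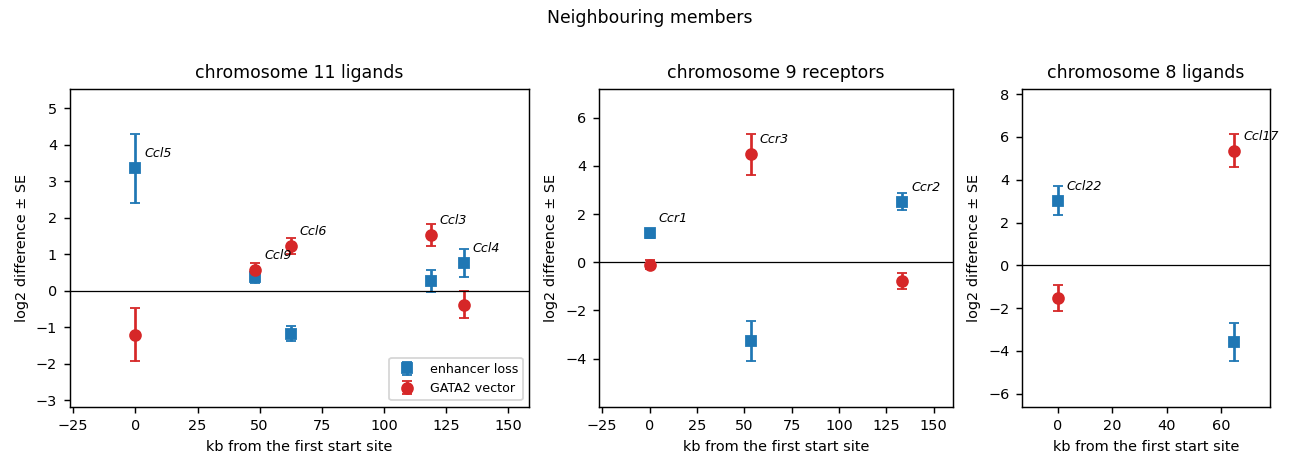
Log2 differences ± SE (y axes, scales differ) of members that lie near each other, by distance of their start site in kb from the first one shown (x axes), for enhancer loss (blue squares) and the GATA2 vector (red circles). Ccl22 and Ccl17, and Ccr3 and Ccr2, have differences of opposite sign for enhancer loss.

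Of the 25 members 10 lie on chromosome 11, 5 on chromosome 1, 4 on chromosome 9, 3 on chromosome 8, 2 on chromosome 5 and 1 on chromosome 4. In the chromosome 9 group, Ccr1 (GRCm38 123962124 to 123968692), Ccr3 (124021972 to 124031689) and Ccr2 (124101950 to 124113557) lie in this order. On enhancer loss Ccr3 fell while Ccr1, 53.3 kb away on one side, and Ccr2, 80 kb away on the other, rose. On chromosome 11, Ccl9, Ccl6, Ccl3 and Ccl4 lie in this order, with 56.3 kb between the starts of Ccl6 and Ccl3. Ccl6 alone of these 4 was called on enhancer loss, and Ccl9, Ccl6 and Ccl3 but not Ccl4 were called with GATA2. Ccl6 and Ccl9 lie between Ccl5, which rose on enhancer loss, and Ccl3.

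R307W in enhancer-null cells left 6 members called, 4 higher and 2 lower, against 17.5% of all genes, 10% higher and 7.48% lower. The median log2 difference was -0.46 for members and 0.02 for all genes. Over the 36 family genes tested at any level, 4 were higher and 5 lower, so the balance depended on the level limit. Cxcr4 rose to 145.16, 116.54, 107.63 and 179.71 TPM, every library above the enhancer-null maximum of 76.92 TPM (1.03 ± 0.16, edgeR adjusted p = 0.000267). Ccl17 rose to 1.18, 0.73, 0.89 and 1.89 TPM (edgeR adjusted p = 0.00127), a ratio of 26.9 to the 2 enhancer-null counts (exact 95% counting interval 7.11 to 227). Ccr3 was at 1.10, 0.40, 0.06 and 1.59 TPM, with replicate 3 inside the enhancer-null range (3.15 ± 0.83, edgeR adjusted p = 0.0144). Ccl27a (1.31 TPM, adjusted p = 0.044) was also called as higher, and Cxcl16 (2.26 TPM, -1.29 ± 0.36, 0.0195) and Ackr1 (0.045 TPM, 5 counts over the group, 0.039) as lower. Of the 8 erythroid markers 4 rose and 2 fell.

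The count fell to 2, Ccl17 and Cxcr4, without R307W replicate 4, and to 3 without enhancer-null replicate 4. Without R307W replicate 4 the values were 2.48 for Ccr3 (adjusted p = 0.0756), -1.01 for Cxcl16 (0.0656), 1.14 for Ccl27a (0.109) and -1.98 for Ackr1 (0.131). Cxcl16 also missed the threshold without enhancer-null replicate 1 (0.0564) or 4 (0.052). Ackr1 missed it without R307W replicate 1 or 2 or enhancer-null replicate 2, 3 or 4 (0.0606 to 0.0948), and Ccl27a without R307W replicate 2 or 3 or any 1 enhancer-null library (0.0645 to 0.125). The Ccr1 ligands called with GATA2 did not pass the test with R307W: Ccl3 at 20.16, 26.73, 25.41 and 20.74 TPM (edgeR adjusted p = 0.629), Ccl6 at 59.56, 51.66, 41.10 and 72.91 TPM (0.692) and Ccl9 at 132.13, 115.49, 104.65 and 127.47 TPM (0.296). Ccr2 with R307W was at 144.63, 142.37, 149.42 and 78.54 TPM, below every enhancer-null library, but was not called (-0.82, edgeR adjusted p = 0.103). The edgeR fit with replicate blocks called it (-0.88, adjusted p = 0.00927). That fit also called Ccl20, Ccl22, Cxcl10, Ccr7 and Cxcl2 as lower with R307W, and over all genes 4097 instead of 2773. Pairing by number was not shown for this comparison.

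T354M left 8 members called, 2 higher and 6 lower, against 17.4% of all genes, 9.26% higher and 8.11% lower. Over the 36 family genes tested at any level, 2 were higher and 9 lower. The median log2 difference was -0.87 for members and 0.02 for all genes. The monocyte receptors fell: Ccr1 was at 38.45, 53.93, 36.85 and 28.40 TPM, below every enhancer-null library (-0.78 ± 0.18, edgeR adjusted p = 0.00584), and Ccr2 at 85.61, 169.08, 89.71 and 30.71 TPM (-1.32 ± 0.35, 0.0136). Ccl9 fell to 95.14, 112.40, 92.81 and 60.97 TPM (-0.71 ± 0.17, edgeR adjusted p = 0.00681). Cxcl2 (0.545 TPM, -1.47 ± 0.46, edgeR adjusted p = 0.034), Cxcl10 (4.03 TPM, -1.65 ± 0.54, 0.0432) and Ackr1 (0.0525 TPM, 6 counts, 0.0484) were lower. Of the 8 erythroid markers 0 rose and 4 fell. Of the monocyte and macrophage markers 6 of 10 fell and none rose. With GATA2 8 of the 10 fell and with R307W 7, and none rose with either.

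Cxcr4 rose with T354M to 115.03, 94.57, 85.65 and 125.74 TPM (0.64 ± 0.16, edgeR adjusted p = 0.0104), and Ccl17 to 0.43, 0.00, 0.32 and 0.97 TPM (edgeR adjusted p = 0.028). The Ccl17 ratio to the enhancer-null total was 10.2 with an exact 95% counting interval of 2.51 to 89, and 1 T354M library had no Ccl17 read. Without T354M replicate 4 the count was 3, with both upward calls lost: Cxcr4 at 0.49 (adjusted p = 0.066) and Ccl17 at 2.20 (0.162). Ccl17 also missed the threshold without enhancer-null replicate 2, 3 or 4 (0.0535 to 0.0722). Counts were 5 without T354M replicate 1 or without enhancer-null replicate 1, 2 or 3. Cxcl2 was not called without T354M replicate 1, 3 or 4 or enhancer-null replicate 1 or 2 (0.0505 to 0.118), nor Cxcl10 without T354M replicate 1, 3 or 4 or enhancer-null replicate 1, 2 or 3 (0.0524 to 0.153), nor Ackr1 without any 1 of the 8 libraries other than T354M replicate 3 (0.0548 to 0.146). Ccr3, at 0.29, 0.13, 0.05 and 0.50 TPM, overlapped the enhancer-null range and was not called (1.48 ± 0.86, edgeR adjusted p = 0.263), and Ccl3, at 15.4 TPM, missed the threshold (-0.87 ± 0.30, 0.0523). The edgeR fit with replicate blocks called Ccl3 (-0.93, adjusted p = 0.0176). It also called Ccl4, Ccl20, Ccl22, Ccr7, Cxcl16 and Xcl1 as lower with T354M, and over all genes 3804 instead of 2751. Pairing by number was not shown here either.

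Direct tests of the variants against GATA2 centred on the Ccr1 ligands of chromosome 11. With R307W 3 members were lower and none higher, against 1.73% of all genes, 0.587% higher and 1.14% lower. These were Ccl3 (23.3 against 76.9 TPM, -1.78 ± 0.30, edgeR adjusted p = 0.00322), Ccl6 (56.3 against 115 TPM, -1.09 ± 0.21, 0.00686) and Ccl9 (120 against 205 TPM, -0.84 ± 0.17, 0.00979). For each of the 3 all 4 R307W libraries lay below all 4 GATA2 libraries, and all 3 calls held when any 1 library was left out. Ccl6 missed the threshold in a fit of these 8 libraries alone (-1.11, adjusted p = 0.0768), and Ccl9 with limma on log2(TPM + 1) (-0.76, 0.0741). Of the 10 mast cell and basophil markers 7 were lower in this comparison and none higher, and the lists of monocyte and macrophage markers had no call.

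With T354M 6 members were lower than with GATA2 and none higher, against 10% of all genes, 3.86% higher and 6.14% lower. Ccl3 was at 11.25, 25.22, 17.02 and 8.0 TPM with T354M (-2.41 ± 0.31, edgeR adjusted p = 5.38e-05). Ccl6 was at 38.79, 40.97, 30.38 and 44.37 TPM (-1.65 ± 0.21, edgeR adjusted p = 5.15e-05), and Ccl9 was lower by a log2 difference of -1.29 ± 0.17 (5.92e-05). For all 3 genes and for Ccl17 (0.43 against 2.22 TPM, -2.30 ± 0.55, edgeR adjusted p = 0.00915) the groups did not overlap. Ccr3 (0.242 against 1.92 TPM, -3.00 ± 0.74, edgeR adjusted p = 0.0123) and Ccr1 (39.4 against 60.4 TPM, -0.67 ± 0.18, 0.0186) overlapped in single libraries. The Ccr1 call was lost without T354M replicate 1 (adjusted p = 0.0574) or 4 (0.0645), and with the replicate block Cxcl2 was added (-1.02, 0.0249). As with R307W, 7 of 10 mast cell and basophil markers were lower and none higher. Of the 8 eosinophil markers 2 were higher and 2 lower, where R307W against GATA2 had 1 higher and 1 lower. All 8 were higher with each variant than with the empty vector. Of the 10 neutrophil markers 6 were higher and none lower, where R307W against GATA2 had 2 higher and none lower. Of the 8 erythroid markers 4 were lower and none higher, where R307W against GATA2 had 0 called.

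R307W and T354M did not differ in any member by edgeR, against 3.49% of all genes called. At an unadjusted edgeR p under 0.05 there were 7 members: Ccl3, Ccl6, Ccl9, Ccr1, Ccl17, Ccr3 and Cxcr4. The share of all genes under that unadjusted limit was not counted, so the 7 cannot be set against it. DESeq2, the fit without a filter and the fit with the replicate block each called 1, Ccr1 (adjusted p = 0.0351, 0.0336 and 0.0164). Ccr1 was at 63.59, 56.87, 59.90 and 53.83 TPM with R307W and at 38.45, 53.93, 36.85 and 28.40 TPM with T354M, with a log2 difference of 0.59 ± 0.18 (edgeR adjusted p = 0.0847). The highest T354M library reached the lowest R307W library. Members' median log2 difference was 0.36, against -0.01 over all genes.

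**Figure D5:**
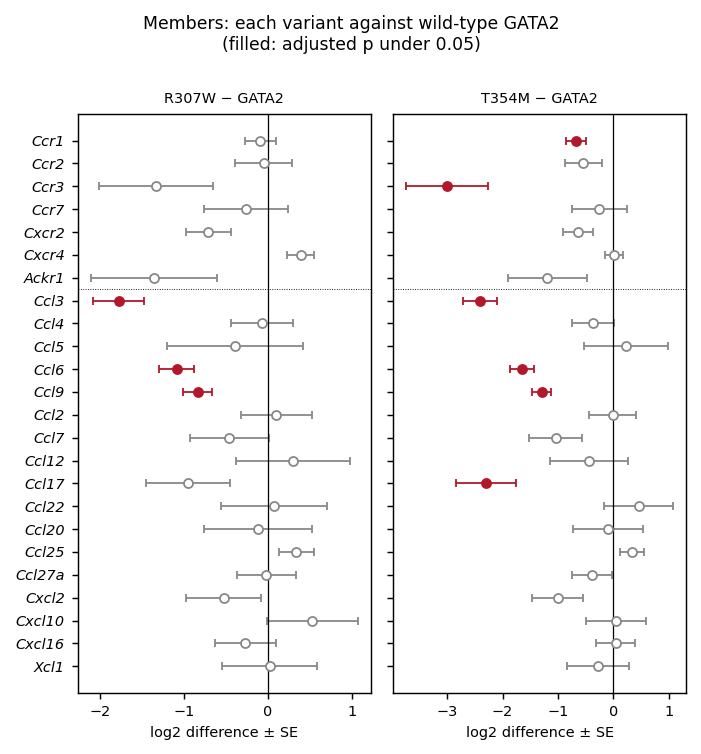
Log2 differences ± SE (x axes, scales differ) of 24 members (y axis, receptors above the dotted line) between each variant and wild-type GATA2; filled red points were called. Ccl3, Ccl6 and Ccl9 are lower with both variants, and Ccl17, Ccr3 and Ccr1 are called with T354M.

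Cxcr4 was the one receptor called as higher with each of the 3 vectors. Against GATA2 it was not called for R307W (0.39 ± 0.16, edgeR adjusted p = 0.4) or T354M (0.01 ± 0.16, 0.993). The 3 vector comparisons share their enhancer-null libraries with each other and with the comparison for enhancer loss. The 7 progenitor markers had 2 higher and 3 lower calls with GATA2, 2 and 2 with R307W, and 3 and 2 with T354M.

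The 2 members just below the level limit moved in opposite directions. Ccr8, the Ccl1 receptor of some T cells and macrophages, was at 0.46 TPM in wild-type, 0.02 in enhancer-null, 0.868 with GATA2, 0.0075 with R307W and 0.075 with T354M. Its 2 enhancer-null counts gave a ratio of 26.6 for wild-type cells (exact 95% counting interval 6.99 to 226, edgeR adjusted p = 0.00399) and of 53.7 for GATA2 (117 counts, 0.00213), where replicate 3 had 0.03 TPM. It was lower with R307W (edgeR adjusted p = 0.00741, 1 count) and with T354M (-3.40 ± 0.85, 0.0133) than with GATA2. Ccr9, the receptor of Ccl25, rose on enhancer loss from 0.128 to 0.835 TPM (2.20 ± 0.43, edgeR adjusted p = 0.000342) and fell with GATA2 (0.357 TPM, -1.23 ± 0.40, 0.0356), R307W (0.238 TPM, -1.78 ± 0.41, 0.00624) and T354M (0.188 TPM, -2.13 ± 0.42, 0.0018).

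Genes that act with the family were read from 4 lists. Of 35 signalling genes, the G proteins, phospholipases, kinases and arrestins downstream of the receptors, 22 rose and 4 fell on enhancer loss, and 4 rose and 12 fell with GATA2 (medians 0.61 and -0.20). Over all tested genes, 20.1% rose and 23.2% fell on enhancer loss, and 11% rose and 8.23% fell with GATA2. Vav1, an exchange factor for Rac, rose from 30.9 to 66.3 TPM on enhancer loss (edgeR adjusted p = 2.07e-07), and Arrb1, beta-arrestin 1, fell from 57.2 to 22.6 TPM (2.76e-09). With GATA2, Tiam1, a Rac exchange factor, rose from 8.68 to 17.4 TPM (edgeR adjusted p = 0.000226) and Plcb2, a phospholipase C, from 23.4 to 34.1 TPM (0.000405).

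Of 16 tested receptors for other attractants, 7 rose and 5 fell on enhancer loss, and 5 rose and 4 fell with GATA2 (medians 0.19 and -0.45), against 43.3% and 19.2% of all genes called in either direction. Hrh4, the histamine receptor of eosinophils and mast cells, was at 0.71 TPM in wild-type, 0.0225 in enhancer-null and 2.5 TPM with GATA2 (edgeR adjusted p = 3.64e-05 and 5.23e-06). Cysltr1, a leukotriene receptor, rose from 2.46 to 14.1 TPM on enhancer loss (edgeR adjusted p = 2.38e-05), and S1pr4, a sphingosine 1-phosphate receptor, rose from 2.79 to 8.23 TPM with GATA2 (0.000603). Of 5 family members under other symbols 1 rose and 2 fell on enhancer loss, and 1 fell with GATA2, against the same shares of all genes. Cx3cr1, the fractalkine receptor of monocytes, rose from 1.75 to 14.2 TPM on enhancer loss (edgeR adjusted p = 1.07e-07) and fell to 7.95 TPM with GATA2 (0.0286), and Ppbp, the platelet chemokine Cxcl7, fell from 143 to 43.5 TPM on enhancer loss (0.00062).

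Of 12 genes for chemokine cleavage and retention 2 rose and 3 fell on enhancer loss, and 2 rose and 2 fell with GATA2 (medians -0.43 and -0.47). For enhancer loss these 5 calls of 12 lie near the 43.3% of all genes called, and with GATA2 the share of all genes was 19.2%. Srgn, the granule proteoglycan that holds chemokines and proteases, rose with GATA2 from 242 to 737 TPM (1.66 ± 0.20, edgeR adjusted p = 1.92e-05). Ndst2, an enzyme of heparin synthesis in mast cells, fell from 17.4 to 8.52 TPM on enhancer loss (edgeR adjusted p = 0.000164) and rose to 17.7 TPM with GATA2 (0.000588). Dpp4, a peptidase that trims several chemokines, rose from 1.04 to 2.38 TPM on enhancer loss (edgeR adjusted p = 0.000557).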

How the data were processed

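RNA-seq gene tables of 20 libraries, 5 groups of 4 taken from the labels, were analysed. The submitters' processing notes name the aligner STAR (2.5.2b), the counter RSEM (1.3.0) and mm10, and per the labels total RNA went through NuGEN Ovation library preparation. The deposited tables hold expected counts, the reads RSEM assigns to a gene, and TPM, which the authors' RSEM run scales to gene length and library. FPKM was not used here. Annotation release and strand setting are not given in the sources used here. Symbols came from GENCODE M21 (53274 of 53379 identifiers matched; the other 105 held at most 0.0148% of a library's counts).

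Expected counts were rounded, filtered with filterByExpr (15835 genes kept), scaled by TMM and tested in 1 edgeR 4.0.16 quasi-likelihood fit of all 20 libraries in R 4.3.3 (15 residual degrees of freedom, common dispersion 0.0468), with Benjamini-Hochberg adjustment over all genes and calls at an adjusted p under 0.05. The SE is the log2 difference divided by the square root of F. The script was tested on simulated data. A floor of 3 counts and exact 95% intervals were set for very low counts. No libraries of a group were duplicates.

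Same-numbered libraries deviated together by every pair's correlation (over 0.1) for GATA2 against the empty vector (0.124 to 0.3), each variant against GATA2 and R307W against T354M, so the replicate block is given beside those results where it changes a call; in the other 4 comparisons at least 1 pair fell below. Alternatives were DESeq2 1.42.0 and its size factors, no filter, 8 libraries only, the block, limma 3.58.1 on log2(TPM + 1) and log2(TPM + 0.1), limits of 0.5 and 2 TPM, leaving out each library, and leaving out replicate 4 of every group. Every member at 1 TPM or more is named, except 1 that is counted in the totals but not reported here, with the nearest members to the limit and, from each gene list with a called gene, the 2 with the lowest adjusted p for enhancer loss and the 2 for GATA2. The members and lists were chosen with earlier results of these data known.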

Additional observations from a re-analysis of the deposited data

Results flagged for a closer look

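Of 120 member and group combinations, 6 had 1 library far from its 3 replicates, where chance marks about 1 in 20. In 3 of them that library was replicate 4 of a variant group and the lowest: Ccr2 (78.54 TPM with R307W, others 142.37 to 149.42), Cxcl16 (0.79 with R307W, others 2.65 to 2.90) and Ccl12 (0.40 with T354M, others 0.75 to 0.82). Wild-type replicate 1 was high for Ccl20 (6.83 TPM, others 1.96 to 2.45). Replicate 3 was high for Ccl22 with GATA2 (1.62 TPM, others 0.16 to 0.33) and for Ccr7 with T354M (1.75 TPM, others 0.35 to 0.51).

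The response to a variant differed from that to GATA2, by the edgeR test of the difference itself, in 9 cases. With R307W the log2 differences from GATA2 were -1.78 for Ccl3, -1.09 for Ccl6 and -0.84 for Ccl9. With T354M they were -2.41 for Ccl3, -1.65 for Ccl6, -1.29 for Ccl9, -2.30 for Ccl17, -3.00 for Ccr3 and -0.67 for Ccr1. Because age, strain and medium are given for the GATA2 group alone of these 3, handling and variant cannot be told apart here.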

How the results depend on the processing

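Of 57 member calls in the 8 comparisons, 37 were called under every alternative run, 20 were lost under at least 1 and 0 changed sign. At least 1 limma fit lost Ccl25 and Ccl7 on enhancer loss, Ccl9 and Cxcl10 with GATA2, Ccr3 and Ackr1 with R307W, Ccl17, Cxcl10 and Ackr1 with T354M, Ccl9 for R307W against GATA2 and Ccr1 for T354M against GATA2. The fit with no filter lost Ccl25 on enhancer loss, Ccl27a on enhancer loss and with GATA2 and R307W, and Ackr1 with both variants. The fit of 8 libraries lost Ccl25 and Cxcl2 on enhancer loss and Ccl6 for R307W against GATA2. The replicate block changed no call for R307W against GATA2. For enhancer loss the 17 calls became 10 at a limit of 2 TPM, where fewer members are counted. For GATA2 the 9 calls became 14 in the fit of 8 libraries alone and 14 with the replicate block. Over all genes the 3042 calls became 3787 and 4085 in these 2 fits. For R307W the 6 calls became 12 with the replicate block, 3 at 2 TPM and 2 without replicate 4 of every group, and ranged from 2 to 7 when each library was left out. For T354M the 8 calls became 15 with the replicate block and ranged from 3 to 9 when each library was left out. For R307W against T354M 0 calls became 1 with no filter, 1 with DESeq2 and 1 with the replicate block, and 0 to 1 on leaving out each library. The cause was not tested for the changes under the block, the smaller fit and the other tool. By the correlation limit of 0.1, pairing was not shown for enhancer loss, for R307W or T354M against the empty vector or for rescued cells. There the block called 20, 12, 15 and 11 members. Over all genes it called 7622, 4097, 3804 and 5874, against 6859, 2773, 2751 and 4869 without the block. The same number was still the best match for 3 of 4 libraries on enhancer loss and with R307W. It was so for 4 of 4 with T354M (0.0619 to 0.313) and 0 of 4 for rescued against wild-type cells.

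Over all genes, calls moved by more than 1.5 times for GATA2 (3042 to 1574 without GATA2 replicate 4, 1996 without replicate 4 of every group), R307W (2773; 1276 without R307W replicate 4, 1764 without enhancer-null replicate 4, 1509), T354M (2751; 1401 without T354M replicate 4, 1758 without replicate 1, 1737 without enhancer-null replicate 4, 1681, and 1831 and 1760 with limma), R307W against GATA2 (274; 117 to 441), T354M against GATA2 (1583; 979 without GATA2 replicate 4, 1013) and R307W against T354M (553; 250 to 888). On TPM with limma, enhancer loss called 3494 genes higher and 2472 lower (log2(TPM + 1)), against 3181 and 3678, with the median of all genes moved by up to 0.10, R307W 1257 and 609 (log2(TPM + 0.1)), against 1589 and 1184, and rescued against wild-type cells 2401 and 1661, against 2335 and 2534. Some genes at about 2 TPM or less, such as Ccl17 (218 counts over the 20 libraries) and Ackr1 (202), rest on few counts. Ccr3 had 1420 counts, of which 30 were in the enhancer-null libraries.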

Other observations

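Replicate 4 held the lowest of the 4 values for 15 of the 25 members in each of the 3 groups with a GATA2, R307W or T354M vector, and for 10 of 25 in wild-type and 11 of 25 in enhancer-null libraries. The same count was not made over all genes, so this is not shown to be particular to the members.

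Among the members below the level limit, the Cxcl10 receptor Cxcr3, named after its values were seen, rose on enhancer loss from 0.08 to 0.6 TPM (2.72 ± 0.43, edgeR adjusted p = 4.14e-05) and was lower with GATA2 (0.245 TPM, -1.26 ± 0.37, 0.0222), R307W (0.163 TPM, -1.86 ± 0.38, 0.00288) and T354M (0.278 TPM, -1.16 ± 0.36, 0.0339) than with the empty vector. Cxcl3, a Cxcr2 ligand named in the same way, was at 0.1 TPM with the empty vector and at 0.465 TPM with GATA2 (1.67 ± 0.57, edgeR adjusted p = 0.045), and was lower with T354M than with GATA2 (0.07 TPM, -2.73 ± 0.62, 0.00646).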
